A study of Mus musculus with 9 samples.

Results

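The 39 genes described here are interferon-stimulated genes, a list of named mouse genes that were present, all 39 of them, in a table of 29995 genes other than immunoglobulin (Ig) genes. All 39 were also among the 12892 genes tested, which had a level of at least 1 TPM (transcript abundance scaled to gene length and library total) in at least 3 of 9 libraries. The list was drawn up by name and not by any threshold on the values, but with earlier results of these data known. The genes comprise 3 IFIT proteins, 5 members of the OAS family, 5 RNA and DNA sensors, 4 transcription factors, 6 genes of the ISG15, ubiquitin and ADP-ribose systems, 5 GTPases of the GBP and IRG families and 11 other antiviral effectors.

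Type I interferons bind the IFNAR1 and IFNAR2 receptor chains, which carry the Janus kinases JAK1 and TYK2. STAT2 and IRF9 are parts of the factor that then binds the interferon-stimulated response element (ISRE) in the promoters of antiviral genes, whereas the response to interferon gamma runs through the gamma-activated site (GAS). In B cells many of these genes are transcribed at a basal level without infection, and the plasma cell regulator Blimp1, encoded by Prdm1, was first described as a repressor of the interferon beta promoter and recognizes a DNA motif related to that of interferon regulatory factors.

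RNA-seq was performed on splenic B-lineage cells of 12 week old B6.Blimp1GFP/+ mice, in which a Blimp1 allele carries a GFP reporter, 4 days after an intraperitoneal injection of 50 µg of NP-LPS, the hapten nitrophenyl coupled to lipopolysaccharide. Naive B cells were IgD high, B220+ and did not bind NP. Activated NP-specific B cells bound NP and were IgD-, GFP-, CD138- and B220+, and NP-specific plasma cells (PCs) bound NP and were IgD-, GFP+ and CD138+. Every sort excluded cells with CD4, CD8a, Ter-119 or F4/80, and each population was sorted and then sorted again. There were 3 libraries per population. All 3 populations came from immunized reporter mice, so the naive B cells are those of an immunized animal and no unimmunized or reporter-free group was compared. The design describes 3 cell types from 3 mice but does not say which mouse gave which library, so libraries of different populations may come from the same mouse, and the tests treat them as independent.

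The libraries held 20189947 to 38602257 reads outside Ig genes, as recovered from the deposited values, and the PC libraries were the shallowest at 20189947 to 22137412. The sorted identities matched the defining markers. The summed TPM of 5 B cell markers was 7694 to 8046 in naive libraries, 5773 to 6293 in NP-specific libraries and 1492 to 1565 in PC libraries, and that of 4 PC markers was 118 to 139, 166 to 182 and 4723 to 5805. T cell markers summed to at most 7.42 TPM in any library, and Siglech, the defining marker of plasmacytoid dendritic cells, was at most 1.88 TPM. The 5 markers of that type together summed to 25.0 to 29.7 TPM in naive libraries, 8.60 to 12.1 in NP-specific libraries and 6.85 to 11.7 in PC libraries, mostly from Pacsin1, at 22.4 to 27.2 TPM in naive libraries, and Ccr9, at 4.15 to 7.91 in PC libraries and 1.07 to 1.92 in naive libraries. PC replicate 3 stood apart from the others. Its 5 liver markers summed to 4543 TPM, with Alb at 660.5 and Apoa2 at 2682, where the other PC libraries had 0.166 and 0.0810 for Alb and 25.2 and 21.6 for Apoa2, which was at 0.504 to 0.879 TPM in naive and 2.91 to 4.62 in NP-specific libraries. The 5 macrophage and monocyte markers in the table summed to 23.4 to 28.9 TPM in naive libraries, 86.5 to 103.0 in NP-specific libraries and 716 to 1012 in PC libraries, and Ly6c2, which PCs themselves can express, held 668 to 924 of the latter. Cd68 was at 3.88 to 4.05 TPM in naive, 45.0 to 67.6 in NP-specific and 28.8 to 35.6 in PC libraries. Itgam was at 2.09 to 2.73, 12.3 to 16.0 and 1.65 to 4.94 TPM in that order. Both were higher in NP-specific than in naive B cells, by log2 changes of 3.67 and 2.42, whereas Lyz2 and Ly6c2 changed by 0.11 and -0.07. The macrophage gene Lyz2 was at 48.2 TPM in PC replicate 3 and at 2.85 and 11.6 in the other PC libraries. Of the neutrophil genes, S100a8 reached 24.7 TPM in NP-specific B cell replicate 2 and 18.7 in PC replicate 3, and 0 to 1.46 elsewhere. The part of these transcripts in the results was not tested, but the counts of the 39 genes and of the further genes called are also given without PC replicate 3.

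The ISRE and GAS were searched for in the 300 bases around each annotated start, 250 before and 50 after, in the RefSeq promoter sequences of assembly GRCm38.p6, which held windows for 31 of the 39 genes. Oas2, Mx1, Usp18, Dhx58, Rtp4, Parp9, Parp14 and Zbp1 were not matched. The ISRE was taken as the 4 letters GAAA, then any 2 bases, then the same 4 letters again, on either strand, so that it reads as a pair of TTTC from the other side. It was present in 17 of the 31 genes (54.8%) and in 3.99% of all 27025 genes with a window. The GAS, TTCNNNGAA, was present in 10 (32.3%) against 9.55% of all genes. The core of the Blimp1 motif, AGNGAAAG on either strand, was present in 3, Stat2, Gbp2 and Gbp3 (9.68%), against 9.91% of all genes, and overlapped an ISRE in Gbp2 alone.

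ISRE matches stood in front of genes that went in opposite directions. In the stretches that follow, each of which lies upstream of the annotated start on the strand of the gene, capitals mark the bases of the ISRE matches. Ifit1 (chr19:34640784-34640833, plus strand), Oas3 (chr5:120777705-120777754, minus strand), Gbp2 (chr3:142620584-142620633, plus strand) and Gbp7 (chr3:142530263-142530312, plus strand) are shown because all fell in PCs relative to naive B cells, and Isg15 (chr4:156200855-156200904, minus strand) and Bst2 (chr8:71537567-71537616, minus strand) because both rose. The match nearest the start began 85 bases before it in Ifit1, 75 in Oas3, 59 in Gbp2, 53 in Gbp7, 66 in Isg15 and 124 in Bst2. In Oas3 the start that defines the window lies inside the annotated span of the gene.
Ifit1: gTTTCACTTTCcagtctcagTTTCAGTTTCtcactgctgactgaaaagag
Oas3: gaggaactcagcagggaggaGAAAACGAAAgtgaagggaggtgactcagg
Gbp2: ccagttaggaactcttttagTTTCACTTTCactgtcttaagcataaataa
Gbp7: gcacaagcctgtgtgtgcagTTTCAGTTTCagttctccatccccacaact
Isg15: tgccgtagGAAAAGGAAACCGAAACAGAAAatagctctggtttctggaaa
Bst2: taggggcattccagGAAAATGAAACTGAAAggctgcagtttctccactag

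Irf1 (chr11:53769904-53769952, plus strand) and Isg20 (chr7:78913331-78913379, plus strand) held no ISRE in these windows but each held a GAS, in capitals, whose first base lay 90 and 73 bases before the start. They are shown because Irf1 fell and Isg20 rose in PCs. For Isg20 the start that defines the window lies inside the gene span given below.
Irf1: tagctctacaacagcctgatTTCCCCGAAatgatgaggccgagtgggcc
Isg20: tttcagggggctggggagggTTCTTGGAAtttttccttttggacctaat
Among the genes with a window, the ISRE was present in 2 of 3 that rose from naive B cells to PCs, 9 of 17 that fell and 6 of 11 that passed neither test. A match of letters is a description of the sequence and not a measurement of binding.

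NP-specific B cells were compared with naive B cells to ask how these genes differ once a B cell has responded to antigen but has not become a PC. Of the 39 genes, 3 were higher, the RNA sensor Ifih1 and the GTPases Gbp2 and Gbp7, and 4 were lower, the transcription factors Irf1 and Irf7, the ubiquitin ligase Trim25 and Ifi44. A gene is called higher or lower here when its adjusted p in limma was under 0.05 and its fold change over 2. Of all 12892 genes tested, 8.13% were higher and 10.4% lower, 18.5% in all, so the shares among the interferon-stimulated genes, 7.69% and 10.3%, lay near the background. The median log2 change was -0.32 for the 39 genes and -0.16 for all genes tested. Every NP-specific B cell library lay above every naive library for 6 genes (23.6% of all genes tested) and below every one for 19 (32.4% of all), and for 14 the groups overlapped, where 55.9% of all genes did not. Leaving out PC replicate 3 left both counts at 3 and 4.

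PCs were compared with naive B cells and with NP-specific B cells to ask how these genes differ in antibody-secreting cells. All populations were taken on day 4, so a rise or fall here is a difference between populations and not a course in time. Against naive B cells 4 were higher, Isg20, Zbp1, Bst2 and Isg15, 23 were lower and 12 passed neither test. Among all genes tested 11.4% were higher and 26.3% lower, 37.8% in all, whereas 10.3% of the interferon-stimulated genes were higher and 59.0% lower. Their median log2 change was -1.28, against -0.47 for all genes. No PC library overlapped the naive libraries for 5 genes that lay above them and 28 that lay below (21.0% and 48.7% of all genes tested, 69.7% together). With NP-specific B cells as the reference 6 were higher, the same 4 with Trim25 and Samhd1, and 17 were lower, where the backgrounds were 9.93% and 22.3%, or 32.2% in all. The median was -0.74, against -0.30 for all genes. Here 8 genes lay above and 25 below without overlap, against 17.3% and 40.9% of all genes tested, 58.2% together. Both comparisons share the PC libraries, and 16 genes were lower and 4 higher in both. The share of all genes called in both was not counted, so these counts have no background. In sorted populations, a fall in a transcript through fewer cells that hold it and through less of it per cell cannot be told apart.

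Without PC replicate 3 the counts were 4 higher and 25 lower against naive B cells, and 5 and 17 in the comparison with NP-specific B cells, where 11.8% and 25.9% of all genes were higher and lower in the former and 10.04% and 21.4% in the latter, so the share of higher genes in the latter lay near the background. The scaling of the libraries bears on the count of lower genes. With scaling by the median of ratios, the median of all genes rose on the log2 scale by 0.11 in NP-specific versus naive B cells, by 0.49 in PCs versus naive B cells and by 0.38 in PCs versus NP-specific B cells. Of the 39 genes, 4 were then higher and 16 lower in PCs versus naive B cells, and 7 higher and 13 lower in PCs versus NP-specific B cells. Under that scaling 18.2% of all genes were higher and 14.1% lower in PCs versus naive B cells. In PCs versus NP-specific B cells 15.7% were higher and 13.9% lower, so the share of higher genes there lay near the background. Among the 26 genes with a mean TPM of at least 10, 14 were lower in PCs versus naive B cells, against 27.4% of all genes with that filter. In PCs versus NP-specific B cells 7 were lower, against 26.0%, a share at the background. With Ig genes kept, 38 of the 39 genes were tested. In PCs versus NP-specific B cells 3 were then higher and 29 lower, against 3.41% and 59.7% of all genes.

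**Figure D1:**
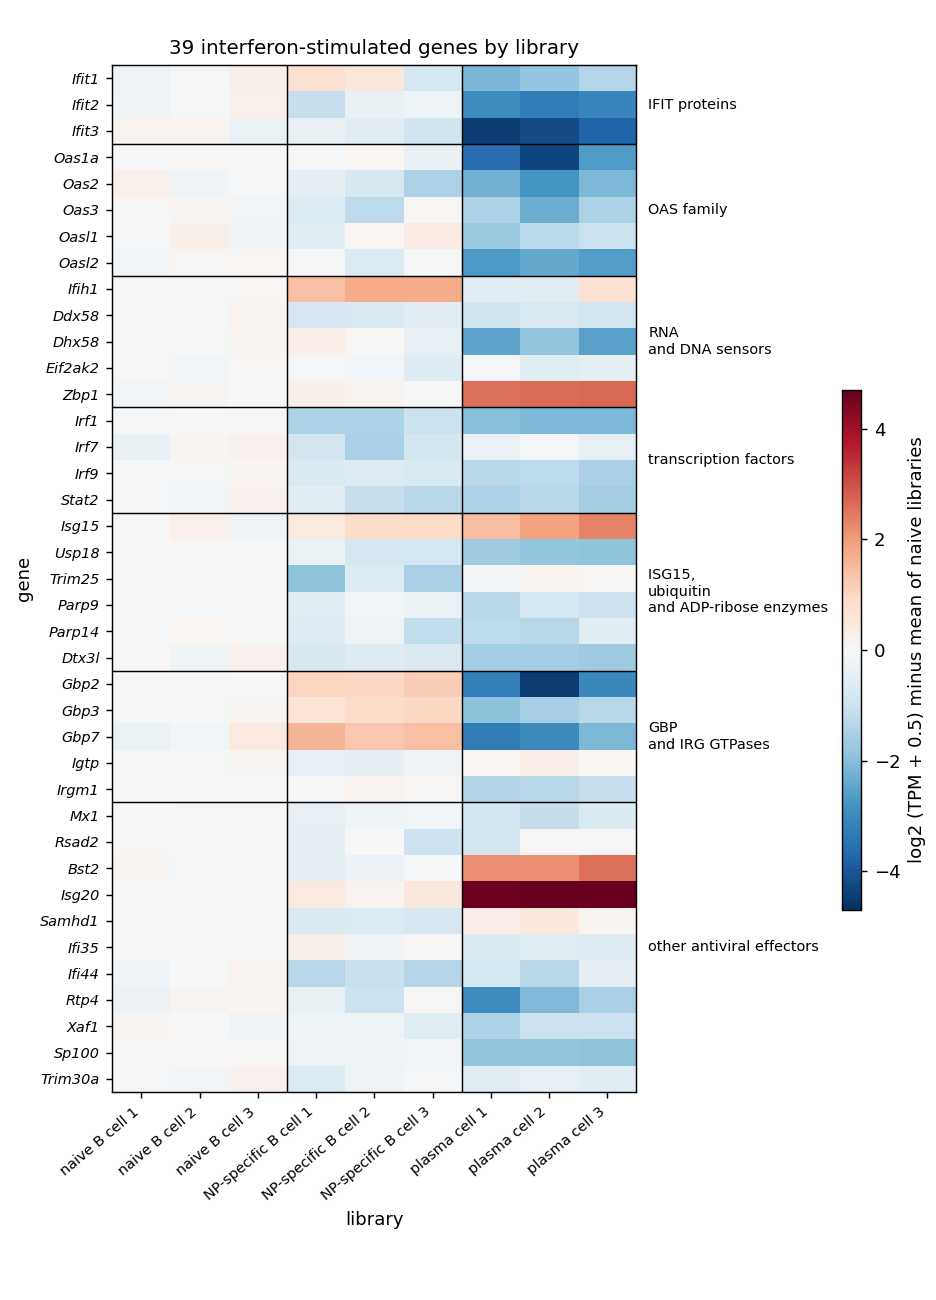
Each row is an interferon-stimulated gene, grouped by role, and each column a library. Colour gives log2 (TPM + 0.5) minus the mean of the 3 naive B cell libraries, red above and blue below. The IFIT and OAS rows are blue in all 3 PC libraries, the Gbp2, Gbp3 and Gbp7 rows are red in NP-specific B cells and blue in PCs, and Isg20, Zbp1, Bst2 and Isg15 are red in PCs.

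**Figure D2:**
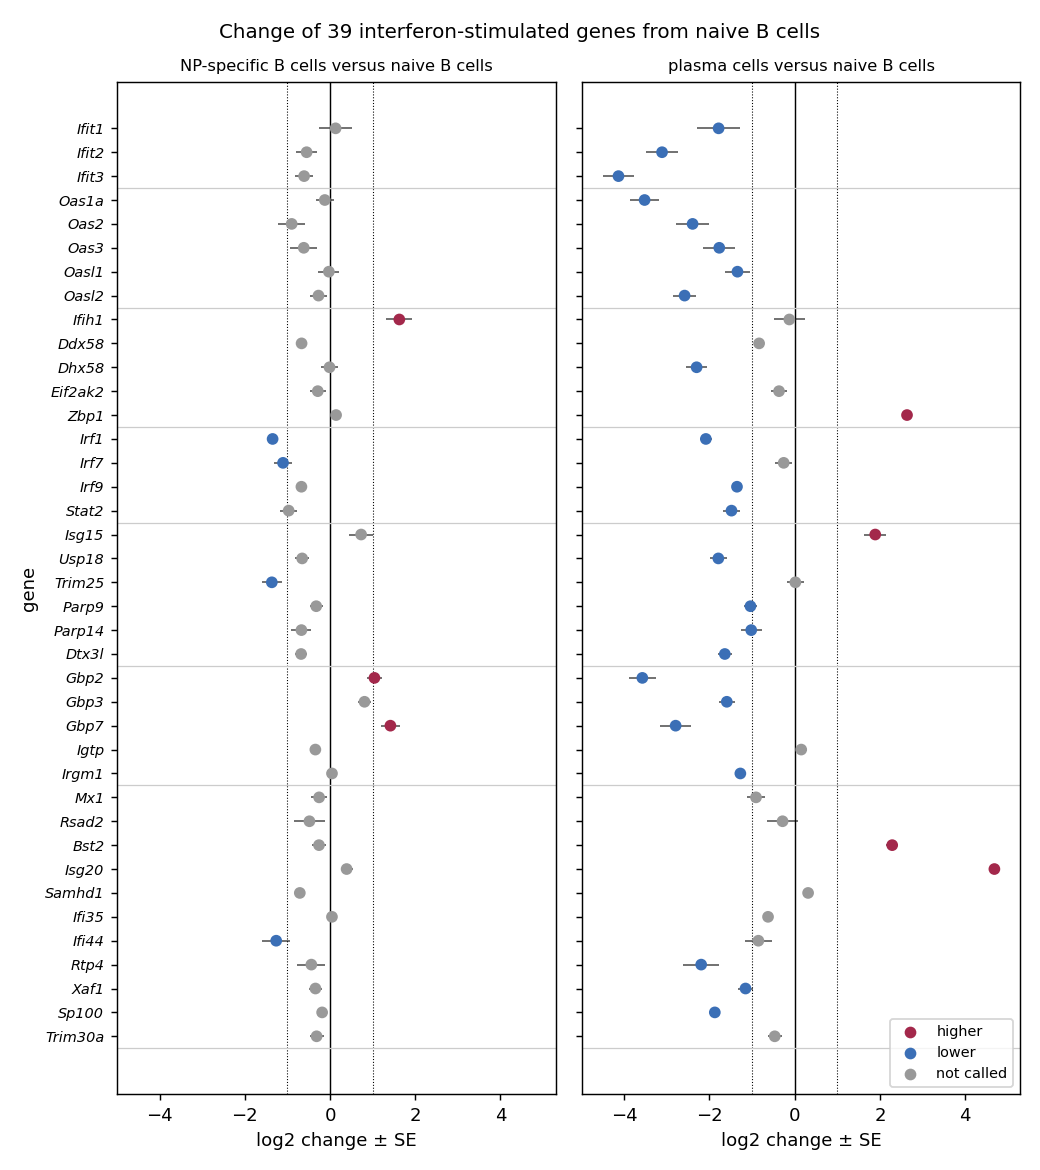
Points give the log2 change of each gene from naive B cells to NP-specific B cells (left) and to PCs (right), with bars of 1 SE from limma. Dotted lines mark a fold change of 2 and colour marks genes called higher, lower or neither. In NP-specific B cells 7 points are coloured, and in PCs 4 lie to the right and 23 to the left.

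The 3 IFIT proteins, which bind foreign RNA ends and block their translation, were lower in PCs in both comparisons, and their changes between NP-specific and naive B cells were all under 2-fold. They lie side by side on chromosome 19, with Ifit2 at chr19:34550550-34576534, Ifit3 at chr19:34583119-34588982 and Ifit1 at chr19:34640889-34650009 (GRCm38.p6). Ifit3 was at 14.4, 14.4 and 10.2 TPM in naive libraries, 9.92, 8.98 and 6.40 in NP-specific libraries and 0.117, 0.228 and 0.484 in PC libraries. All 3 PC libraries lay far below all others, and every NP-specific B cell library was below every naive library. The log2 change was -4.14 ± 0.37 (SE, adjusted p = 3.23e-06) in PCs versus naive B cells and -3.53 ± 0.38 (SE, adjusted p = 1.62e-05) versus NP-specific B cells. Its log2 change of -0.61 from naive to NP-specific B cells had an adjusted p of 0.0409 but was under 2-fold.

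Ifit2 was at 5.26, 5.51 and 7.00 TPM in naive libraries, 2.54, 4.55 and 4.98 in NP-specific libraries and 0.329, 0.162 and 0.239 in PC libraries. Its PC libraries did not overlap either B cell group, with log2 changes of -3.11 ± 0.37 (SE, adjusted p = 2.79e-05) and -2.56 ± 0.38 (SE, adjusted p = 1.71e-04). Ifit1, the least abundant of the 3, was at 1.91, 2.24 and 2.91 TPM in naive libraries, 4.13, 3.63 and 1.08 in NP-specific libraries and 0.145, 0.303 and 0.575 in PC libraries. NP-specific B cells spread around the naive values for this gene, and PCs lay below both. Its log2 change in PCs versus naive B cells was -1.79 ± 0.50 (SE, adjusted p = 0.0102). These PC values rest on few reads, an estimated 3.47, 6.95 and 14.2 for Ifit3 and 6.94, 14.8 and 27.2 for Ifit1. Ifit3 has a near-identical copy, Ifit3b, that the table does not list by name, so how reads were shared between them is uncertain.

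All 5 OAS genes were likewise lower in PCs in both comparisons, and none was called between NP-specific and naive B cells. The OAS1, OAS2 and OAS3 enzymes make the 2-5A messenger that activates RNase L on sensing double-stranded RNA, and Oasl1 and Oasl2 encode related proteins. Oas1a (chr5:120896256-120907544) was at 11.5, 12.8 and 13.0 TPM in naive libraries, 11.5, 13.4 and 9.75 in NP-specific libraries and 0.585, 0.152 and 1.54 in PC libraries. Naive and NP-specific B cells overlapped almost entirely, while the highest PC library was far under the lowest of either. The log2 change in PCs was -3.52 ± 0.35 (SE, adjusted p = 7.67e-06) versus naive B cells and -3.40 ± 0.35 (SE, adjusted p = 1.28e-05) versus NP-specific B cells. Oas1a has close copies beside it on chromosome 5, and the division of reads among them is uncertain.

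Oasl2 was at 9.85, 11.3 and 11.5 TPM in naive libraries, 10.2, 6.85 and 10.3 in NP-specific libraries and 1.26, 1.66 and 1.32 in PC libraries. PCs again stood clear of both B cell groups, which overlapped, with log2 changes of -2.58 ± 0.26 (SE, adjusted p = 8.89e-06) and -2.31 ± 0.26 (SE, adjusted p = 2.80e-05). Oas2 was at 3.79, 2.73 and 2.85 TPM in naive libraries, 2.18, 1.61 and 0.789 in NP-specific libraries and 0.253, 0.0133 and 0.334 in PC libraries. Every NP-specific B cell library was below every naive library and every PC library was lower still. The log2 change in PCs versus naive B cells was -2.40 ± 0.38 (SE, adjusted p = 2.55e-04), and PC replicate 2 held an estimated 0.783 reads of this gene, under a floor of 3. Without NP-specific B cell replicate 1 the fall of Oas2 between naive and NP-specific B cells also passed, at -1.13 (adjusted p = 0.0256). Oas3 and Oasl1 had smaller changes, -1.77 ± 0.38 and -1.34 ± 0.28 versus naive B cells (adjusted p = 0.00195 and 0.00189). Their calls were not kept under every setting. Without PC replicate 2 the log2 change of Oas3 versus NP-specific B cells was -0.86 (adjusted p = 0.104), and it also lost its call without NP-specific B cell replicate 1 (adjusted p = 0.0514) or replicate 3 (0.0811). With median-of-ratios scaling and quantile normalization it was -0.77 and -0.90. Oasl1 lost its call versus naive B cells with quantile normalization, at -0.77 (adjusted p = 0.0646), and with median-of-ratios scaling, at -0.85, and in those settings its change versus NP-specific B cells was -0.84 and -0.93.

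The cytoplasmic sensors did not move together. Ifih1, which encodes the long double-stranded RNA sensor MDA5 (chr2:62595618-62646255), was at 1.95, 1.71 and 1.92 TPM in naive libraries, 5.76, 7.50 and 7.35 in NP-specific libraries and 1.19, 1.07 and 3.36 in PC libraries. NP-specific B cells were above all other libraries, and PC replicate 3 stood above the other PC libraries. Ifih1 had a log2 change of 1.63 ± 0.31 (SE, adjusted p = 0.00191) in NP-specific versus naive B cells and -1.75 ± 0.31 (SE, adjusted p = 6.63e-04) in PCs versus NP-specific B cells. Dhx58, which encodes LGP2, a regulator of that sensor, was at 25.5, 26.4 and 30.1 TPM in naive libraries, 34.2, 28.0 and 20.9 in NP-specific libraries and 4.54, 7.15 and 4.17 in PC libraries. Its B cell groups overlapped and its PC libraries lay well below them. The log2 changes in PCs were -2.30 ± 0.25 (SE, adjusted p = 1.76e-05) and -2.29 ± 0.25 (SE, adjusted p = 2.29e-05).

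Zbp1, a sensor of Z-form nucleic acid that can trigger necroptosis (chr2:173206612-173218959), went the other way. It was at 36.4, 42.6 and 39.6 TPM in naive libraries, 47.9, 44.1 and 39.9 in NP-specific libraries and 238, 250.5 and 259 in PC libraries. The mean in PCs was 6.30-fold that of naive B cells, and the B cell groups overlapped. Its log2 changes in PCs were 2.64 ± 0.11 (SE, adjusted p = 6.97e-09) and 2.49 ± 0.10 (SE, adjusted p = 1.20e-08). Ddx58, which encodes the RNA sensor RIG-I, ranged over 83.4 to 100.3 TPM in naive cells, 51.7 to 62.9 in NP-specific cells and 46.4 to 54.5 in PCs. Neither activated group overlapped the naive libraries, but the log2 changes of -0.67 ± 0.12 and -0.84 ± 0.12 (adjusted p = 0.00159 and 1.59e-04) were under 2-fold. Eif2ak2, the kinase PKR that halts translation on binding double-stranded RNA, ranged over 18.1 to 20.5 TPM in naive cells, 12.7 to 18.4 in NP-specific cells and 12.9 to 18.4 in PCs, and its groups overlapped in all 3 comparisons.

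Among the transcription factors of the pathway, Irf1 was lower at both steps from the naive state. Irf1, a factor induced by interferon gamma (chr11:53770014-53778374), was at 147, 154 and 159.9 TPM in naive libraries, 54.0, 54.2 and 75.2 in NP-specific libraries and 38.0, 34.9 and 35.1 in PC libraries. The 3 groups did not overlap and ran in the order naive, NP-specific, PC. The log2 change was -1.35 ± 0.13 (SE, adjusted p = 2.08e-05) in NP-specific B cells and -2.09 ± 0.14 (SE, adjusted p = 2.77e-07) in PCs, both versus naive B cells, while the -0.74 ± 0.15 between PCs and NP-specific B cells was under 2-fold. Irf9, a DNA-binding part of the factor that recognizes the ISRE, ranged over 68.3 to 78.6 TPM in naive cells, 43.6 to 46.9 in NP-specific cells and 24.9 to 30.6 in PCs. It had the same order without overlap, and its log2 change was -1.35 ± 0.12 (SE, adjusted p = 3.38e-06) in PCs versus naive B cells.

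Stat2, its partner in that factor, was at 37.1, 35.2 and 44.4 TPM in naive libraries, 27.3, 18.0 and 15.3 in NP-specific libraries and 13.6, 15.2 and 12.0 in PC libraries. Both activated groups were below every naive library. Stat2 changed by -1.48 ± 0.21 (SE, adjusted p = 1.09e-04) in PCs and -0.97 ± 0.20 (SE, adjusted p = 0.00282) in NP-specific B cells, just under 2-fold in the latter. The latter passed without NP-specific B cell replicate 1, at -1.20 (adjusted p = 0.000637), and without naive B cell replicate 1 (adjusted p = 0.00929) or replicate 2 (-1.04). With the median-of-ratios scaling the changes of Irf9 and Stat2 in PCs were -0.86 and -0.99 and fell short of 2-fold. Irf7, the factor that amplifies interferon alpha transcription, had another pattern. It was at 25.2, 35.2 and 36.6 TPM in naive libraries, 17.1, 10.7 and 17.1 in NP-specific libraries and 25.7, 30.8 and 24.1 in PC libraries. NP-specific B cells held less than every naive and every PC library, and naive B cells and PCs overlapped. For Irf7 the log2 change was -1.10 ± 0.22 (SE, adjusted p = 0.00241) in NP-specific versus naive B cells, and 0.85 ± 0.22 (adjusted p = 0.00729) in PCs versus NP-specific B cells, under 2-fold. Without NP-specific B cell replicate 2 the former was -0.89 (adjusted p = 0.00765), with median-of-ratios scaling it was -0.99, and in neither case was it called. Median-of-ratios scaling gave 1.22 for the latter and quantile normalization 1.27, both called.

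Isg15, a ubiquitin-like protein that is joined to other proteins after interferon signalling, rose in PCs while its removing enzyme fell. Isg15 (chr4:156199424-156200818) was at 13.8, 16.4 and 11.8 TPM in naive libraries, 18.8, 25.3 and 27.0 in NP-specific libraries and 38.4, 53.1 and 72.6 in PC libraries. The groups did not overlap, and PC replicate 3, the library with liver transcripts, was the highest of all. The log2 change was 1.89 ± 0.26 (SE, adjusted p = 8.21e-05) in PCs versus naive B cells and 1.16 ± 0.23 (SE, adjusted p = 0.00151) versus NP-specific B cells. Without PC replicate 3 the latter was 0.94 (adjusted p = 0.00284) and no longer over 2-fold. Once Ig genes were kept in the total it was -0.02, and the change versus naive B cells was 0.70 and not called either. Usp18, which removes ISG15 and also blocks IFNAR2 signalling, was at 15.5, 15.7 and 14.3 TPM in naive libraries, 12.0, 8.49 and 8.39 in NP-specific libraries and 4.42, 3.96 and 3.76 in PC libraries. The 3 groups ran downwards without overlap, with log2 changes in PCs of -1.79 ± 0.20 (SE, adjusted p = 1.83e-05) and -1.14 ± 0.21 (SE, adjusted p = 8.34e-04). The latter was -0.98 without NP-specific B cell replicate 1, -0.76 with median-of-ratios scaling and -0.68 with quantile normalization, and was then not called.

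Trim25, a ubiquitin ligase that acts on RIG-I (chr11:88999403-89020294), was lowest in NP-specific B cells. It was at 115, 107 and 116 TPM in naive libraries, 29.6, 71.2 and 39.1 in NP-specific libraries and 104, 122 and 118 in PC libraries. NP-specific B cells lay below all other libraries although they spread widely among themselves, and naive B cells and PCs overlapped. Trim25 changed on the log2 scale by -1.37 ± 0.23 (SE, adjusted p = 0.00104) in NP-specific versus naive B cells, 1.38 ± 0.23 (SE, adjusted p = 4.44e-04) in PCs versus NP-specific B cells and 0.02 ± 0.21 (SE, adjusted p = 0.953) in PCs versus naive B cells. Keeping Ig genes in the total made the last -1.19 and the second 0.19, so that the fall was then shared by PCs.

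The 3 genes of the ADP-ribose system fell in PCs versus naive B cells. Dtx3l, a ubiquitin ligase that works as a pair with PARP9, and Parp9 have annotated spans that overlap on chromosome 16 (chr16:35926515-35939027 and chr16:35938470-35972621), with Parp14 beside them, and reads in the overlap cannot be told apart in libraries that do not mark the strand. Dtx3l was at 22.1, 19.7 and 26.0 TPM in naive libraries, 13.3, 14.7 and 13.8 in NP-specific libraries and 6.86, 7.09 and 6.75 in PC libraries. Its groups did not overlap, and its log2 change in PCs versus naive B cells was -1.64 ± 0.17 (SE, adjusted p = 9.42e-06). Parp9 ranged over 35.8 to 38.8 TPM in naive cells, 25.7 to 34.5 in NP-specific cells and 14.9 to 20.7 in PCs and Parp14 over 23.5 to 25.6 TPM in naive cells, 10.7 to 20.3 in NP-specific cells and 9.66 to 16.5 in PCs. Their changes in PCs versus naive B cells, -1.04 ± 0.16 and -1.02 ± 0.24 (adjusted p = 2.02e-04 and 0.00387), were just over 2-fold. Without PC replicate 1 they were -0.91 and -0.92, and that of Parp14 was -0.88 without PC replicate 2 and -0.98 without naive B cell replicate 2, none of them called. With median-of-ratios scaling the changes were -0.55 and -0.53 and with quantile normalization -0.60 and -0.48, and the adjusted p of Parp14 was then 0.0982 and 0.129.

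Of the guanylate-binding proteins, GTPases that coat intracellular pathogens and their vacuoles, Gbp2 and Gbp7 were higher in NP-specific B cells, and these and Gbp3 were lower in PCs. Gbp7 (chr3:142530336-142550151), Gbp3 (chr3:142560016-142573213) and Gbp2 (chr3:142620663-142638008) lie close together on chromosome 3. Gbp2 was at 16.1, 14.8 and 15.6 TPM in naive libraries, 31.8, 30.9 and 35.4 in NP-specific libraries and 1.22, 0.234 and 1.44 in PC libraries. NP-specific B cells held 2.11-fold the naive mean, and PCs were far below both. On the log2 scale Gbp2 changed by 1.04 ± 0.17 (SE, adjusted p = 8.52e-04) in NP-specific versus naive B cells, -3.58 ± 0.31 (SE, adjusted p = 2.72e-06) in PCs versus naive B cells and -4.62 ± 0.30 (SE, adjusted p = 3.71e-07) in PCs versus NP-specific B cells. Without NP-specific B cell replicate 3 the first was 0.99 and just missed 2-fold, and its adjusted p was 0.132 on the authors' log2 values and 0.0976 with a pseudocount of 0.1.

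Gbp7 was at 9.09, 10.3 and 15.8 TPM in naive libraries, 35.9, 28.1 and 30.9 in NP-specific libraries and 0.725, 1.00 and 2.28 in PC libraries. The order of the groups was that of Gbp2, with no overlap. The log2 changes were 1.42 ± 0.22 (SE, adjusted p = 5.71e-04), -2.79 ± 0.36 (SE, adjusted p = 5.73e-05) and -4.21 ± 0.34 (SE, adjusted p = 2.00e-06) in the same order of comparisons. Gbp3 was at 34.1, 34.4 and 39.6 TPM in naive libraries, 55.2, 65.8 and 71.1 in NP-specific libraries and 9.17, 12.0 and 14.3 in PC libraries. It followed the same order without overlap, although its change in NP-specific B cells, 0.81 ± 0.15 (SE, adjusted p = 0.00154), was under 2-fold. In PCs its log2 changes were -1.59 ± 0.19 (SE, adjusted p = 2.58e-05) and -2.40 ± 0.18 (SE, adjusted p = 9.80e-07). These genes are close paralogs, and reads that fit more than 1 of them were divided by the authors' pseudoalignment.

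Of the immunity-related GTPases, Irgm1 was lower in PCs and Igtp was not called. Irgm1, which regulates the other GTPases of its family (chr11:48865245-48871420), ranged over 97.2 to 98.9 TPM in naive cells, 96.1 to 109 in NP-specific cells and 36.5 to 46.1 in PCs. Its B cell groups overlapped and its PC libraries were below both, with log2 changes of -1.28 ± 0.11 (SE, adjusted p = 3.01e-06) and -1.32 ± 0.11 (SE, adjusted p = 2.84e-06). With median-of-ratios scaling both calls were lost, at -0.78 and -0.94, and with quantile normalization the latter, at -0.94. Igtp, an effector of that family also called Irgm3, ranged over 38.6 to 45.0 TPM in naive cells, 30.1 to 35.8 in NP-specific cells and 43.1 to 50.1 in PCs and was not called in any comparison. When Ig genes stayed in the total, its change in PCs versus naive B cells was -1.03 in place of 0.15.

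Of the other antiviral effectors, Isg20 had the largest rise among the 39 genes. Isg20, a 3' to 5' exonuclease that degrades viral RNA (chr7:78913396-78920396), was at 29.7, 30.9 and 27.9 TPM in naive libraries, 41.2, 33.4 and 42.9 in NP-specific libraries and 721, 780.0 and 825 in PC libraries. Its mean in PCs was 26.3-fold that of naive B cells and 19.8-fold that of NP-specific B cells, and the groups did not overlap in any comparison. The log2 changes in PCs were 4.69 ± 0.12 (SE, adjusted p = 3.24e-10) and 4.30 ± 0.11 (SE, adjusted p = 5.23e-10). A log2 change of 0.39 ± 0.14 from naive to NP-specific B cells (adjusted p = 0.0443) was under 2-fold.

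Bst2, or tetherin, which holds budding virus particles at the cell surface (chr8:71534255-71537472), was at 67.5, 58.8 and 57.5 TPM in naive libraries, 46.0, 50.0 and 58.6 in NP-specific libraries and 272, 273 and 369.5 in PC libraries. The B cell groups overlapped and PCs were clear of both, with PC replicate 3 the highest. Its mean in PCs was 4.98-fold that of naive B cells, with log2 changes of 2.29 ± 0.15 (SE, adjusted p = 2.46e-07) and 2.55 ± 0.15 (SE, adjusted p = 1.67e-07). Samhd1, a triphosphohydrolase that depletes the deoxynucleotides retroviruses need, was at 391, 415 and 419.9 TPM in naive libraries, 258, 259 and 236 in NP-specific libraries and 511, 583 and 447 in PC libraries. It was lowest in NP-specific B cells and highest in PCs without overlap. Its log2 change was -0.71 ± 0.11 (SE, adjusted p = 4.42e-04) in NP-specific versus naive B cells, under 2-fold, and 1.02 ± 0.10 (SE, adjusted p = 1.18e-05) in PCs versus NP-specific B cells. The latter stood at the 2-fold limit and was 0.93 without PC replicate 2 and 0.98 without NP-specific B cell replicate 3, and with Ig genes kept it was -0.18. With quantile normalization it was 0.94, and the change in NP-specific versus naive B cells was -1.05 (adjusted p = 2.96e-05) and called.

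Sp100, a protein of nuclear bodies that silences viral DNA (chr1:85649948-85709998), was at 547, 592 and 607 TPM in naive libraries, 496, 511 and 535 in NP-specific libraries and 159, 160.2 and 157 in PC libraries. It was the most abundant of the 39 genes in both B cell groups, and its PC libraries agreed closely and lay far below. The log2 changes in PCs were -1.87 ± 0.08 (SE, adjusted p = 1.08e-08) and -1.69 ± 0.08 (SE, adjusted p = 3.34e-08). Rtp4, a chaperone of membrane receptors, was at 3.97, 5.48 and 5.32 TPM in naive libraries, 3.75, 2.14 and 5.15 in NP-specific libraries and 0.184, 0.766 and 1.39 in PC libraries. Its PC libraries were below all others, with log2 changes of -2.20 ± 0.42 (SE, adjusted p = 9.11e-04) and -1.76 ± 0.43 (SE, adjusted p = 0.00493). Xaf1, a proapoptotic antagonist of XIAP, ranged over 40.1 to 48.7 TPM in naive cells, 30.2 to 38.3 in NP-specific cells and 16.0 to 22.2 in PCs, and its log2 change in PCs versus naive B cells was -1.15 ± 0.16 (SE, adjusted p = 1.23e-04). It lost its call with median-of-ratios scaling, at -0.66, and with quantile normalization, at -0.76.

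The rest of the effectors changed little or were scarce. Ifi35 ranged over 103 to 109 TPM in naive cells, 93.5 to 126 in NP-specific cells and 65.7 to 70.7 in PCs, and its change in PCs, -0.63 ± 0.12 (SE, adjusted p = 9.81e-04) versus naive B cells, was under 2-fold. Trim30a, which has close copies beside it, ranged over 35.1 to 43.7 TPM in naive cells, 23.9 to 37.1 in NP-specific cells and 26.5 to 29.3 in PCs and was not called. Mx1, a gene of the dynamin-like GTPase family, ranged over 5.17 to 5.75 TPM in naive cells, 4.06 to 4.89 in NP-specific cells and 2.24 to 3.19 in PCs. PCs were below both B cell groups for Mx1, with a log2 change of -0.91 ± 0.21 (SE, adjusted p = 0.00334) versus naive B cells that did not reach 2-fold, and that was -1.01 without PC replicate 3. Rsad2, or viperin, was at 1.03 to 1.12, 0.308 to 1.04 and 0.362 to 1.15 TPM in the same order of groups. Ifi44 was at 1.26, 1.48 and 1.74 TPM in naive libraries, 0.283, 0.463 and 0.263 in NP-specific libraries and 0.634, 0.309 and 0.970 in PC libraries. The fall of Ifi44 in NP-specific B cells, -1.26 ± 0.33 (SE, adjusted p = 0.0115), passed the test at these low levels, with no overlap, but not with a pseudocount of 1 (log2 change -0.93) or quantile normalization (-0.82).

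**Figure D3:**
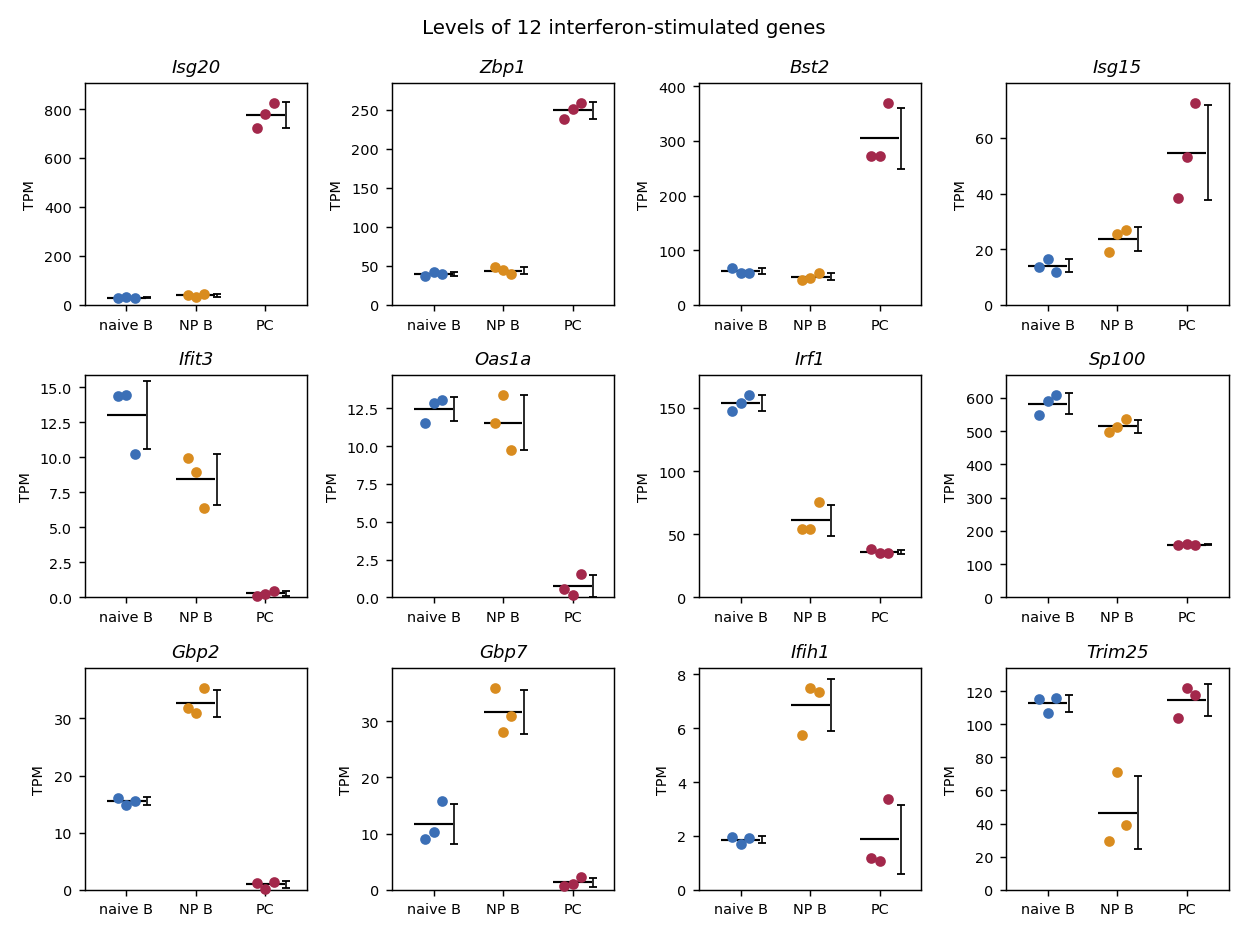
Each panel gives the TPM of 1 gene in the 3 libraries of naive B cells (naive B), NP-specific B cells (NP B) and PCs. Lines are group means and bars 1 SD (n = 3 libraries). Isg20, Zbp1, Bst2 and Isg15 are highest in PCs, Gbp2, Gbp7 and Ifih1 in NP-specific B cells, and Ifit3, Irf1 and Sp100 in naive B cells, while Trim25 is lowest in NP-specific B cells.

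Ordered by their group means, 20 of the 39 genes ran from naive through NP-specific B cells to PCs in descending order. Naive B cells had the highest mean for 23 genes, NP-specific B cells for 9 and PCs for 7. PCs had the lowest mean for 28. These orders were not counted over all genes tested, so the counts have no background. The median log2 change of all genes tested was also negative, at -0.16 in NP-specific versus naive B cells. In PCs it was -0.47 versus naive B cells and -0.30 versus NP-specific B cells. Over all alternatives in which the genes were tested, the calls of Ifih1, Irf1, Trim25 and Gbp7 in NP-specific versus naive B cells were kept, 4 of 7. In PCs versus naive B cells 19 of 27 calls were kept, among them those of all 3 IFIT genes, Oas1a, Oas2, Oas3, Oasl2, Gbp2, Gbp3, Gbp7, Isg20, Zbp1 and Bst2. In PCs versus NP-specific B cells 16 of 23 were kept.

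Although most of the genes were lower in PCs, their summed share of the TPM outside Ig genes was not. The 39 genes together made up 0.231 to 0.247% of all TPM outside Ig genes in naive libraries, 0.185 to 0.191% in NP-specific libraries and 0.261 to 0.284% in PC libraries, and the 3 ranges did not overlap. Isg20, Bst2, Zbp1 and Isg15 contributed 5.86 to 6.77% of that sum in naive libraries, 8.48 to 9.26% in NP-specific libraries and 50.5 to 56.4% in PC libraries. The other 35 genes summed to 2031 to 2197 TPM in naive libraries, 1605 to 1650 in NP-specific libraries and 1180 to 1331 in PC libraries. Outside Ig genes, the summed TPM of the list thus ran opposite to the count of genes and to the median log2 change in PCs. The sum was not computed with Ig genes kept. In that setting the median log2 change of all genes in PCs versus naive B cells was -1.40, in place of -0.47.

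**Figure D4:**
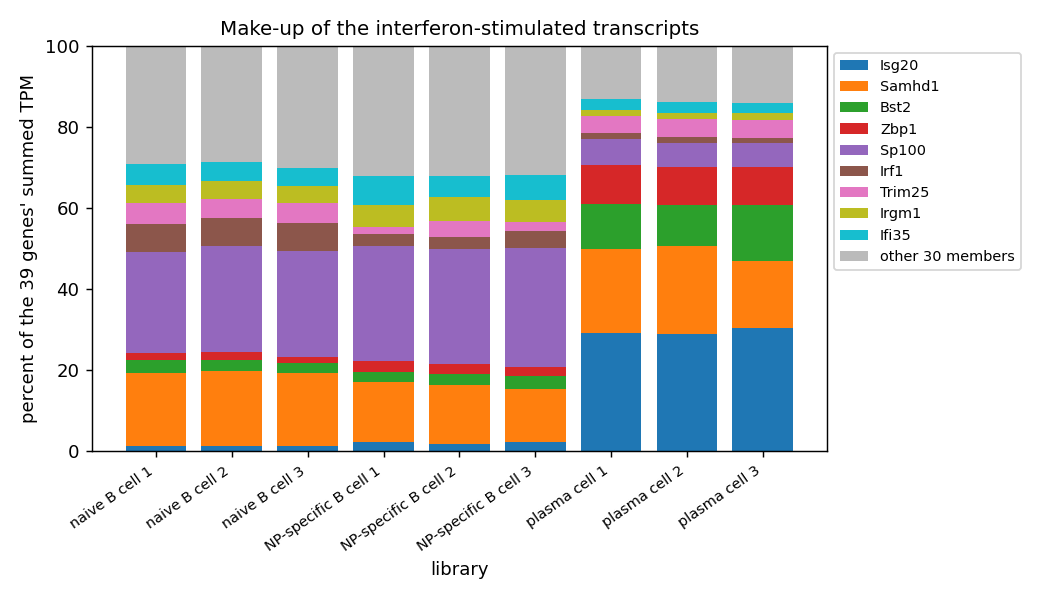
Stacked bars give the share of the 39 genes' summed TPM held by each of 9 abundant genes and by the other 30 in each library. Of the 9 named genes, Sp100 has the widest segment in all naive and NP-specific B cell libraries, and Isg20 in all PC libraries.

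The receptors and kinases upstream of these genes were measured in the same libraries. Of 85 further genes of the interferon system, listed by name, 84 were in the table and 70 were tested. In NP-specific versus naive B cells 1 was higher and 13 lower, in PCs versus naive B cells 3 were higher and 42 lower, and in PCs versus NP-specific B cells 3 were higher and 35 lower. Over all 12892 genes tested, 8.13% were higher and 10.4% lower in the first comparison, 11.4% and 26.3% in the second and 9.93% and 22.3% in the third. Without PC replicate 3 the counts were 1 and 14, 3 and 44, and 3 and 34 in that order, and with median-of-ratios scaling 1 and 10, 4 and 32, and 4 and 29. With Ig genes kept, 68 of these genes were tested, and the counts were 1 and 13, 0 and 60, and 1 and 58. In the comparisons of PCs 4.47% and 3.41% of all genes were then higher, and 64.5% and 59.7% lower. The chains of the type I receptor went in opposite directions in PCs. Ifnar1 was at 65.4, 57.4 and 74.4 TPM in naive libraries, 31.3, 26.5 and 26.5 in NP-specific libraries and 29.4, 35.1 and 32.1 in PC libraries. Both activated groups were below the naive libraries and overlapped each other. Its log2 change was -1.22 ± 0.14 (SE, adjusted p = 7.71e-05) in NP-specific B cells and -1.02 ± 0.14 (SE, adjusted p = 7.18e-05) in PCs, the latter at the 2-fold limit and -0.53 with median-of-ratios scaling. It was -0.93 without naive B cell replicate 3 and -0.96 without PC replicate 1.

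Ifnar2, the chain that USP18 binds, was at 58.5, 58.2 and 52.9 TPM in naive libraries, 47.4, 47.9 and 27.6 in NP-specific libraries and 202, 199 and 191 in PC libraries. Its PC libraries were above all others, with log2 changes of 1.79 ± 0.16 (SE, adjusted p = 3.44e-06) and 2.30 ± 0.17 (SE, adjusted p = 9.26e-07). Keeping Ig genes in the total made the former 0.57, and it was not called. Both chains of the interferon gamma receptor were lower in PCs. Ifngr1, the ligand-binding chain, was at 121, 115 and 118 TPM in naive libraries, 141, 112 and 113 in NP-specific libraries and 16.9, 15.6 and 11.4 in PC libraries. The B cell groups overlapped and the PCs lay far below, at -2.99 ± 0.17 (SE, adjusted p = 7.97e-08) versus naive B cells. Ifngr2, the signalling chain, ranged over 83.6 to 101 TPM in naive cells, 42.8 to 69.3 in NP-specific cells and 13.9 to 17.2 in PCs, with a log2 change of -2.47 ± 0.20 (SE, adjusted p = 1.27e-06) in PCs versus naive B cells. Il10rb, shared by the receptors of interleukin 10 and interferon lambda, ranged over 144 to 161 TPM in naive cells, 56.6 to 79.5 in NP-specific cells and 44.5 to 47.5 in PCs, and the log2 change was -1.22 ± 0.12 (SE, adjusted p = 3.17e-05) in NP-specific B cells and -1.76 ± 0.13 (SE, adjusted p = 6.70e-07) in PCs. Ifnlr1, the specific chain of the lambda receptor, did not pass the filter and was at most 1.07 TPM.

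Jak1, the kinase that all of these receptors use, was at 299, 291 and 312 TPM in naive libraries, 148, 135 and 142 in NP-specific libraries and 37.4, 38.3 and 39.6 in PC libraries. The groups ran downwards without overlap, with log2 changes of -1.09 ± 0.08 (SE, adjusted p = 5.12e-06) in NP-specific B cells and -2.96 ± 0.10 (SE, adjusted p = 1.38e-09) in PCs versus naive B cells. Jak2 was lower in PCs (-1.54 ± 0.36 versus naive B cells, adjusted p = 0.00371), whereas Tyk2 ranged over 28.3 to 32.3 TPM in naive cells, 19.3 to 25.3 in NP-specific cells and 22.2 to 27.3 in PCs and was not called. The largest fall in this list after Trim34a was that of Irf8, a lineage factor of B cells, which was at 509, 460.1 and 468 TPM in naive libraries, 417, 350.3 and 359 in NP-specific libraries and 23.3, 11.1 and 13.2 in PC libraries, a log2 change of -4.95 ± 0.20 (SE, adjusted p = 8.26e-09).

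**Figure D5:**
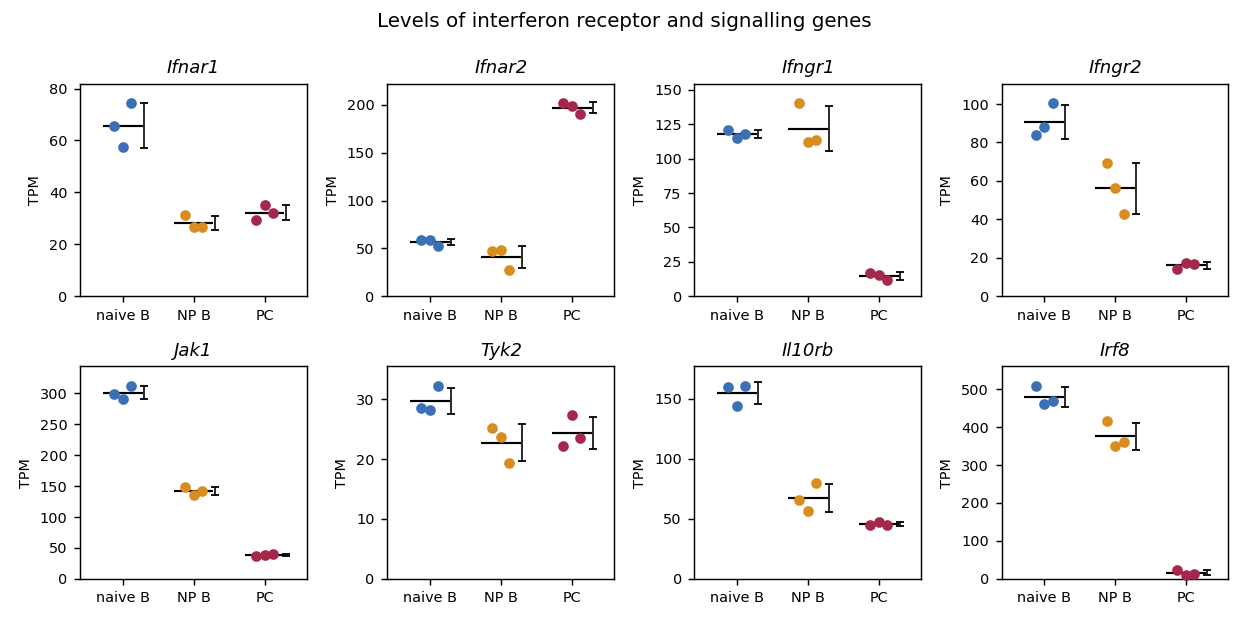
Each panel gives the TPM of 1 receptor or signalling gene in the 3 libraries of each population, with the group mean and 1 SD (n = 3 libraries). Ifnar2 is highest in PCs, while Ifngr1, Ifngr2, Jak1, Il10rb and Irf8 are lowest there.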

How the data were processed

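RNA was reverse transcribed with the SMART-Seq v4 kit, which does not mark the strand, and libraries were made with Nextera XT. The authors computed TPM by pseudoalignment with kallisto and deposited these TPM and log2 values from voom, each with and without Ig genes. The totals behind the log2 values are those of reads and not of TPM. The labels name mm10. The transcript annotation is not given in the sources used here, nor is which of 2 sequencers read each library. Here the deposited TPM without Ig genes were passed to voom and limma 3.58.1 (R 4.3.3), as the study's methods describe, with each library scaled to its column sum, genes with at least 1 TPM in at least 3 libraries, and 3 group means. Voom adds 0.5 to each value, so a log2 change understates that of scarce genes. Calls needed a Benjamini-Hochberg adjusted p under 0.05 over all 12892 genes tested and a fold change over 2. Errors beside log2 changes are SE from limma with n = 3 libraries per group. Read totals were recovered from the deposited log2 value shared by genes at 0 TPM, which stands for 0.5 counts, and limit the precision of genes near 1 TPM. Names and positions are from RefSeq GRCm38.p6. The fits were tested on simulated data. All 39 genes may be named. Those called with the largest changes within each role, up to 3, have values per library, and from the further list the receptor chains and up to 5 genes per direction and comparison are named. A few more genes were named after their values were seen, and 1 gene of the further list is not reported here. The genes and lists were chosen with earlier results of these data known. Alternatives were a replicate block, Ig genes kept, the authors' log2 values, pseudocounts of 0.1 and 1, no filter, a mean TPM of at least 10, median-of-ratios scaling, quantile normalization, a fit of only the 6 libraries compared, and leaving out each library.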

Additional observations from a re-analysis of the deposited data

How the results depend on the processing

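Over 117 results (39 genes in 3 comparisons), 2181 values were computed under alternatives. Of these, 2101 kept their side of the thresholds, 46 lost a call, 30 gained a call and 4 reversed, and 48 of those that kept their side were uncalled changes whose sign differed. The 4 reversals were all with Ig genes kept, which lowers every other gene in PCs by construction: Trim25 at -1.19 and Igtp at -1.03 in PCs versus naive B cells, and Isg15 at -0.0211 and Samhd1 at -0.18 in PCs versus NP-specific B cells. That setting tested 38 of the 39 genes. In PCs versus NP-specific B cells 3 were higher and 29 lower, against 3.41% and 59.7% of all genes tested. In PCs versus naive B cells 3 were higher and 32 lower, against 4.47% and 64.5%. Among the 26 genes with a mean TPM of at least 10, 14 were lower in PCs versus naive B cells and 7 in PCs versus NP-specific B cells, against 27.4% and 26.0% of all 7278 genes that passed that filter, so that the latter share lay at the background. Leaving out each library in turn gave 2 to 3 higher and 3 to 6 lower genes in NP-specific versus naive B cells, 4 higher and 21 to 25 lower in PCs versus naive B cells, and 5 to 6 higher and 15 to 17 lower in PCs versus NP-specific B cells. With quantile normalization the median log2 change of all genes was -0.07 in PCs versus naive B cells and 0.0016 in PCs versus NP-specific B cells. The main fit gave -0.47 and -0.30. Of the 39 genes, 19 and 13 were lower with quantile normalization, against 15.9% and 14.3% of all genes. The cause of the other changes was not tested. Replicate numbers were not used to pair libraries. The deviations of libraries with the same number from their group means correlated at -0.07 to 0.07 over all genes, and with a replicate block the counts were 3 higher and 4 lower, 4 and 23, and 6 and 17, as without it. Depth limits Ifit1, Ifit2, Ifit3, Oas1a, Oas2, Oasl2, Gbp2, Rtp4, Rsad2 and Ifi44 in PCs. These genes had an estimated 0.783 to 82.8 reads in every PC library. Some PC libraries also held such low counts of Oas3 (44.8 in replicate 2), Gbp7 (57.5 and 81.4 in replicates 1 and 2) and Ifih1 (73.4 and 67.9 in replicates 1 and 2).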

Other observations

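Other genes of the interferon system were read in the same way. Of 36 further interferon-stimulated genes tested, 8 were lower in NP-specific versus naive B cells, and 20 were lower and 1 higher in PCs versus naive B cells, with median log2 changes of -0.48 and -1.32. Among all genes tested 10.4% were lower in the former comparison, and 26.3% were lower and 11.4% higher in the latter. The largest falls in PCs versus naive B cells were those of Trim34a (112 to 152 TPM in naive cells, 55.0 to 78.6 in NP-specific cells and 1.61 to 4.06 in PCs, log2 change -5.54 ± 0.33 (SE, adjusted p = 1.40e-07)), Slfn2, a quiescence factor of lymphocytes (288 to 332 TPM in naive cells, 126 to 139 in NP-specific cells and 11.4 to 17.2 in PCs, -4.39 ± 0.15 (SE, adjusted p = 2.21e-09)), Tgtp2 (-4.07 ± 0.33 (SE, adjusted p = 1.55e-06)) and Slfn5 (-4.02 ± 0.52 (SE, adjusted p = 6.29e-05)). Tgtp1 and Tgtp2 are near-identical GTPase genes whose reads cannot be divided with certainty. In NP-specific versus naive B cells the falls of Slfn5 (-2.79 ± 0.42), Tgtp2 (-2.51 ± 0.26), Helz2, a helicase (-2.03 ± 0.17), Tgtp1 (-1.94 ± 0.31) and Gbp9 (-1.50 ± 0.26) led. Gbp9 thus fell where Gbp2 and Gbp7 of its family rose: it was at 26.5, 22.5 and 24.8 TPM in naive libraries, 9.75, 9.25 and 6.52 in NP-specific libraries and 0.888, 4.48 and 1.68 in PC libraries. Epsti1 fell in PCs versus NP-specific B cells (-3.52 ± 0.28 (SE, adjusted p = 1.87e-06)). Ifitm3, which blocks virus entry, was the gene that rose in PCs. It was at 6.27, 9.96 and 8.30 TPM in naive libraries, 10.1, 6.54 and 6.88 in NP-specific libraries and 17.4, 18.6 and 166 in PC libraries. PC replicate 3, the library with liver transcripts, stood far above the other PC libraries, and without it the log2 change versus naive B cells was 1.11 (adjusted p = 0.00195) in place of 2.17 ± 0.85 (SE, adjusted p = 0.0470). Leaving out any 1 of the naive or NP-specific B cell libraries gave an adjusted p of 0.0605 to 0.116 for that change, and the call was lost.

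Of 13 genes of nucleic acid sensing, 1 was higher and 1 lower in NP-specific versus naive B cells. In PCs 1 was higher and 6 lower versus naive B cells, and 1 higher and 7 lower versus NP-specific B cells. Of all genes tested, 8.13%, 11.4% and 9.93% were higher in that order, and 10.4%, 26.3% and 22.3% lower. The share of higher genes among the 13 was 7.69% in each comparison, near or under the background. Tlr3, the endosomal receptor of double-stranded RNA, rose with Ifih1 in NP-specific B cells. It was at 1.33, 1.01 and 0.942 TPM in naive libraries, 6.87, 10.7 and 6.24 in NP-specific libraries and 0.408, 0.0202 and 0.0824 in PC libraries. The log2 change was 2.37 ± 0.31 (SE, adjusted p = 1.89e-04) in NP-specific versus naive B cells and -3.66 ± 0.37 (SE, adjusted p = 1.11e-05) in PCs versus NP-specific B cells. Ticam1, its adaptor TRIF, was instead higher in PCs, at 9.20 to 12.0 TPM in naive cells, 8.29 to 11.7 in NP-specific cells and 23.0 to 25.6 in PCs, with log2 changes of 1.12 ± 0.17 (SE, adjusted p = 1.64e-04) and 1.28 ± 0.17 (SE, adjusted p = 7.92e-05), and with Ig genes kept in the total the former was -0.04. The 8 listed interferon genes did not pass the filter. Of 7 feedback inhibitors tested, 5 were lower in each comparison of PCs, where 26.3% and 22.3% of all genes were lower. They included Socs1 and Socs3, which bind Janus kinases, at -2.96 ± 0.30 and -3.30 ± 0.44 versus naive B cells (adjusted p = 9.65e-06 and 7.61e-05).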
